A study of Mus musculus with 21 samples.

Results

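The genes described here are 9 regulators of mitochondrial biogenesis, measured in the glandular stomach of mice: the coactivators Ppargc1a and Ppargc1b, the estrogen-related receptors Esrra, Esrrb and Esrrg, the fatty acid receptors Ppara and Pparg, and the factors Tfam and Nrf1. They were chosen by name, with earlier results of these data known, and all 9 were found among the 18193 genes that the array names. Every probe set annotated to a single 1 of them was taken, 24 of the 45037 on the array, and for each gene the probe set with the highest mean signal stands for it while the others served as a check. No probe set was filtered out for low signal.

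The study hybridised 1 array per mouse for 21 C57BL/6 mice labelled female and aged 18 to 65 weeks. There were 3 wild-type mice, 5 K19-Wnt1 mice, 2 K19-Nog mice, 3 K19-C2mE mice, 5 mice of the compound K19-Wnt1/C2mE and 3 of the compound K19-Nog/C2mE. Each transgene is driven in the gastric epithelium by the promoter of the keratin gene K19. Wnt1 encodes a Wnt ligand, Nog encodes noggin, which blocks bone morphogenetic proteins, and C2mE stands for COX-2 together with mPGES-1, the enzymes that make prostaglandin E2. The compound mice carry K19-C2mE together with K19-Wnt1 or K19-Nog, and their stomachs hold dysplastic tumours or hamartomas, while K19-C2mE alone gives hyperplasia.

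Mitochondrial biogenesis is controlled from the nucleus. PGC-1alpha and PGC-1beta, the products of Ppargc1a and Ppargc1b, do not bind DNA themselves but dock on estrogen-related receptors, on PPARs and on NRF1 and raise their output. Estrogen-related receptors switch on genes of the respiratory chain and the citric acid cycle, PPAR-alpha those of fatty acid oxidation, NRF1 those of the respiratory chain and of Tfam, and TFAM then packs and transcribes mitochondrial DNA. In the stomach the acid-secreting parietal cell is known for its very dense mitochondria, which supply the proton pump.

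Promoter windows of RefSeq (GRCm38.p6, 250 bases before to 50 after a start site) were searched for the sites through which these factors act, because the members are known to act on one another's genes. The search covered windows of 8 of the 9 genes, 15 in all. Ppargc1b was left out of it, so the counts below say nothing about that gene. The element of NRF1, GCGCATGCG, lies in 1 of the 15 windows, that of Ppara, and in 1.75% of the 32851 windows of all genes. It is shown in capitals in the window at chr15:85735526-85735825 on the plus strand, where it reads on both strands in an overlapping run 31 bases before the start site.
Ppara: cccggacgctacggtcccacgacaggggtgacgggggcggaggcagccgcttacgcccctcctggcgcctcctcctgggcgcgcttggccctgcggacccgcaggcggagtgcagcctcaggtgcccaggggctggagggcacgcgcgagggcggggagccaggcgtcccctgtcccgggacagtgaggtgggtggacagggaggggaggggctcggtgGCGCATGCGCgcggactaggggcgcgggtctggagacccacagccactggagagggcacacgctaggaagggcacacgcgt
The core site of nuclear receptors, AGGTCA, lies in 2 windows of Pparg and in 16.3% of all windows. Neither the estrogen-related receptor element TNAAGGTCA (1.28% of all windows), nor the ETS element CCGGAAGTG (2.03%), nor a direct repeat of that core site with 1 base between (0.0396%) lies in any of the 15. For Ppargc1a, whose level separated the C2mE genotypes below, the cAMP response element was searched as well, chosen after its values were seen. The full element TGACGTCA (1.79% of all windows) lies in none of the 15. Its shorter core TGACG lies in 3 of the 15, of Ppargc1a, Esrrb and Ppara, and in 20.8% of all windows, so a match is no mark of these genes. In Ppargc1a it lies in the window at chr5:51567676-51567975 on the minus strand, 49 bases before the start site and in reverse orientation, and is shown in capitals.
Ppargc1a: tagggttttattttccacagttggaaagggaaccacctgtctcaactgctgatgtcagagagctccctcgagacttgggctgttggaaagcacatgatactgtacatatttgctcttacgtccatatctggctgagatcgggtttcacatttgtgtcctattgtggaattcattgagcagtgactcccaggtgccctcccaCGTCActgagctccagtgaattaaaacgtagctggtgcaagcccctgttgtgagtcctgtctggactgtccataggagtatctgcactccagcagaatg
All motifs were searched on both strands. These matches describe letters in a window and were not tested as binding sites.

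Some facts of the arrays bear on the results. Median signals of the arrays lay between 65.963 and 68.764, and arrays of 1 genotype correlated at 0.983 to 0.996 over all probe sets. Y-linked genes were high in 9 of the 21 arrays although all are labelled female: 4 of the 5 K19-Wnt1 arrays, 2 of the 3 wild-type, 2 of the 3 K19-C2mE and 1 of the 5 K19-Wnt1/C2mE arrays, and none with Nog, with the lowest of the 9 at a mean log2 signal of 7.0 and the highest of the others at 3.39. Where leaving these arrays out changed a call against wild-type, the value without them is given beside it. For the other comparisons it is given for some members only. That setting leaves 1 array each of wild-type, K19-Wnt1 and K19-C2mE. Parietal, chief and foveolar cell genes were high in all wild-type arrays. Of 9 parietal cell genes 7 fell against wild-type with C2mE alone, 9 with Wnt1 added and 8 with Nog added. Of 15 genes of the squamous forestomach 13, 5 and 1 rose in the same order, with a summed signal of 14206 to 70308 in K19-C2mE against 661 to 4598 in wild-type. Of 6 chief cell genes 1, 4 and 4 fell, where 12.6%, 21.7% and 16.2% of all named genes were called lower. Their summed signal was 81346 to 82307 in wild-type and 5438 to 35198 in K19-C2mE. It was 2054 to 36756 in K19-Wnt1/C2mE and 446 to 3933 in K19-Nog/C2mE. All 7 of 7 genes of mucous neck cells and of spasmolytic polypeptide-expressing metaplasia rose in each of the 3, with a summed signal of 28209 to 30914 in wild-type against at least 58406 on every array with C2mE. The part of these cell types in the results was not tested. In such bulk tissue fewer cells of a type and less RNA per cell cannot be told apart.

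In all 3 genotypes with C2mE, 4 of the 9 regulators fell against wild-type and none rose. Esrrg, Ppara and Esrrb fell in each. Ppargc1a fell in K19-C2mE and K19-Nog/C2mE, and Ppargc1b fell in K19-Wnt1/C2mE. Esrra, Pparg, Tfam and Nrf1 did not pass the test in any of the 3 by the probe set that stands for them. A gene was called where the p of limma, adjusted by Benjamini-Hochberg over all 45037 probe sets, was under 0.05. For K19-C2mE 26.9% of the 18193 named genes were called, 12.6% lower and 14.3% higher. For K19-Wnt1/C2mE 42.2% were called, 21.7% lower and 20.5% higher. For K19-Nog/C2mE 31.7% were called, 16.2% lower and 15.6% higher. With the arrays of high Y-linked genes left out the counts were 0, 3 and 3 of the 9. Adding the Y-linked level to the model gave 4, 4 and 4.

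**Figure D1:**
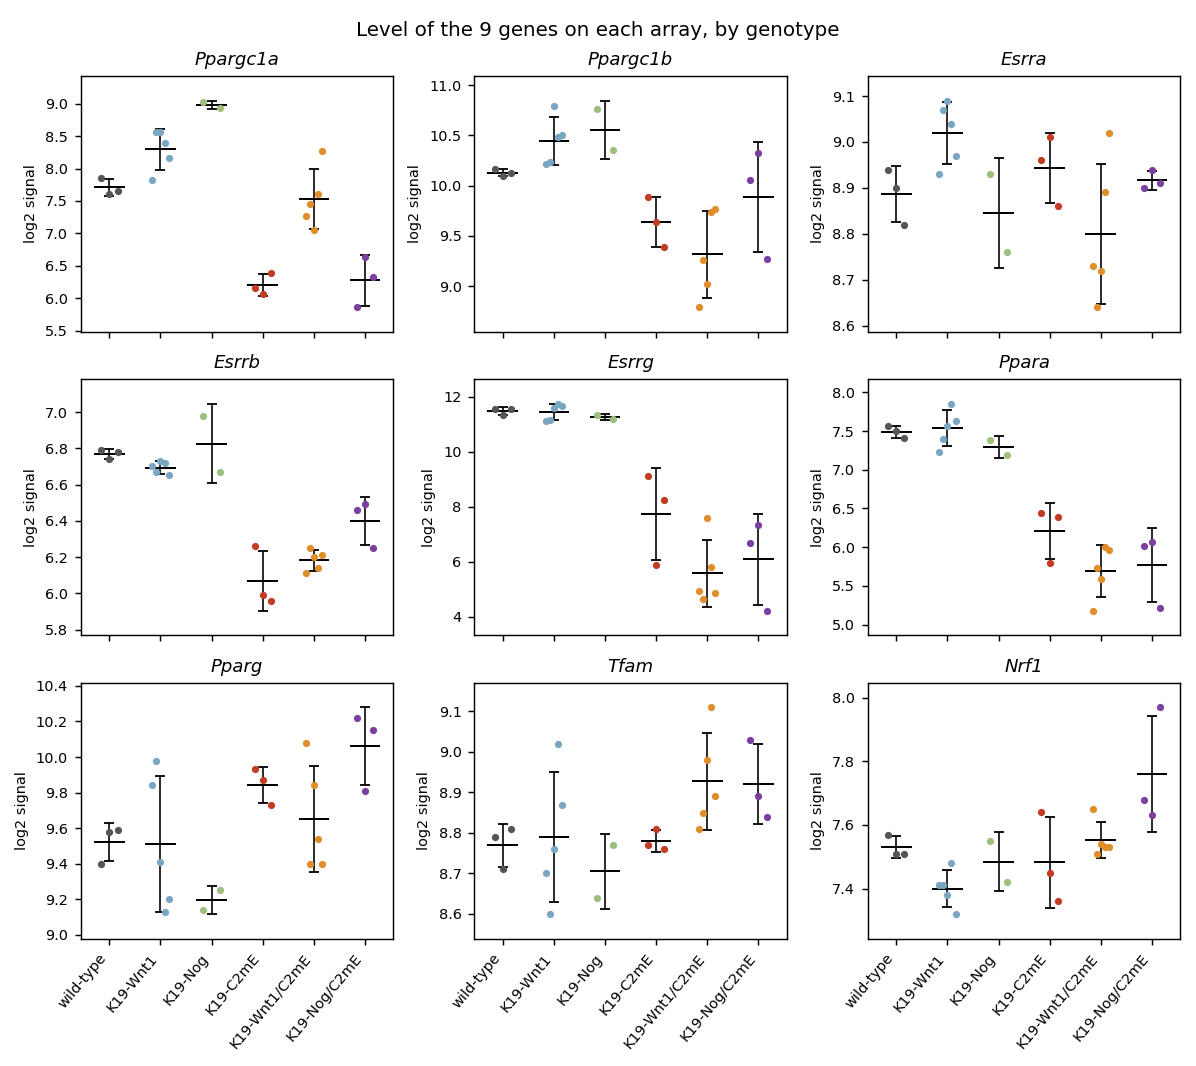
Log2 signal (vertical axis, a different range in each panel) of the 9 genes on each of the 21 arrays, by genotype (horizontal axis); points are arrays, bars the mean and error bars the SD. Esrrg lay at 11.12 or above on every array without C2mE and at 9.12 or below on every array with it.

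Esrrg encodes the estrogen-related receptor gamma, which in mice drives oxidative genes in heart, muscle and stomach. Its log2 signal was 11.57, 11.33 and 11.56 in the wild-type arrays. In K19-Wnt1 it was 11.12, 11.15, 11.58, 11.73 and 11.67, and in K19-Nog 11.36 and 11.19. These 3 genotypes overlapped. In K19-C2mE it was 9.12, 5.88 and 8.24. In K19-Wnt1/C2mE it was 4.95, 4.64, 7.60, 5.82 and 4.85, and in K19-Nog/C2mE 6.69, 7.35 and 4.22. No array with C2mE reached the lowest array without it, and the SD within the C2mE genotypes (1.68, 1.22 and 1.65) was far above that of wild-type (0.14). Against wild-type Esrrg fell by 3.74 in K19-C2mE (SE 0.78, 13.4-fold, limma adjusted p = 0.00175). It fell by 5.92 in K19-Wnt1/C2mE (SE 0.70, 60.4-fold, limma adjusted p = 1.98e-06) and by 5.40 in K19-Nog/C2mE (SE 0.78, 42.2-fold, limma adjusted p = 3.65e-05). Both other probe sets of Esrrg were called lower in each of the 3 genotypes, with log2 differences from -3.15 to -1.41. Without the arrays of high Y-linked genes the 3 differences of Esrrg were -2.21 (limma adjusted p = 0.674), -5.58 (limma adjusted p = 0.0187) and -5.24 (limma adjusted p = 0.0358). The difference between K19-Wnt1/C2mE and K19-C2mE was -2.17 (SE 0.70, limma adjusted p = 0.0778), with a 95% interval of -3.64 to -0.71. It did not pass the test over all 21 arrays, but passed without array 2 of K19-C2mE (-3.11, limma adjusted p = 0.0108), without array 3 of K19-Wnt1/C2mE (-2.68, limma adjusted p = 0.0158) and without array 3 of K19-Nog/C2mE (-2.17, limma adjusted p = 0.0346). The other 2 probe sets differed by -0.48 and -0.06 there, neither called.

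Ppara encodes PPAR-alpha, the fatty acid sensor that switches on mitochondrial and peroxisomal oxidation. Its log2 signal was 7.56, 7.50 and 7.41 in wild-type, and 6.44, 5.79 and 6.39 in K19-C2mE. In K19-Wnt1/C2mE it was 5.18, 5.73, 5.59, 6.00 and 5.96, and in K19-Nog/C2mE 6.02, 6.07 and 5.22. All 3 C2mE genotypes lay below wild-type without overlap, and below K19-Wnt1 (7.23 to 7.85) and K19-Nog (7.19 and 7.39). Ppara fell by 1.28 in K19-C2mE (SE 0.23, 2.43-fold, limma adjusted p = 0.000399). It fell by 1.80 in K19-Wnt1/C2mE (SE 0.20, 3.48-fold, limma adjusted p = 1.16e-06) and fell by 1.72 in K19-Nog/C2mE (SE 0.23, 3.3-fold, limma adjusted p = 1.31e-05). Its 2 other probe sets were called lower in all 3 genotypes too, with differences from -1.94 to -0.97. The values of Ppara without the arrays of high Y-linked genes were -1.07 (limma adjusted p = 0.385), -1.88 (limma adjusted p = 0.0098) and -1.73 (limma adjusted p = 0.0209).

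Esrrb encodes the estrogen-related receptor beta, best known from mouse embryonic stem cells. Its log2 signal was 6.79, 6.74 and 6.78 in wild-type, and 6.26, 5.99 and 5.96 in K19-C2mE. In K19-Wnt1/C2mE it was 6.11, 6.25, 6.20, 6.14 and 6.21, and in K19-Nog/C2mE 6.46, 6.49 and 6.25. The values were close together but again did not overlap with wild-type. Esrrb fell by 0.70 in K19-C2mE (SE 0.09, limma adjusted p = 1.8e-05), by 0.58 in K19-Wnt1/C2mE (SE 0.08, limma adjusted p = 1.75e-05) and by 0.37 in K19-Nog/C2mE (SE 0.09, limma adjusted p = 0.00533). Both other probe sets were called lower in each genotype, 1 of them by 1.16 to 1.32 and the other by 0.43 to 0.54 on the log2 scale, so that the probe sets differ in size but not in direction. For Esrrb leaving out the arrays of high Y-linked genes gave -0.48 (limma adjusted p = 0.374), -0.56 (limma adjusted p = 0.0466) and -0.34 (limma adjusted p = 0.241).

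**Figure D2:**
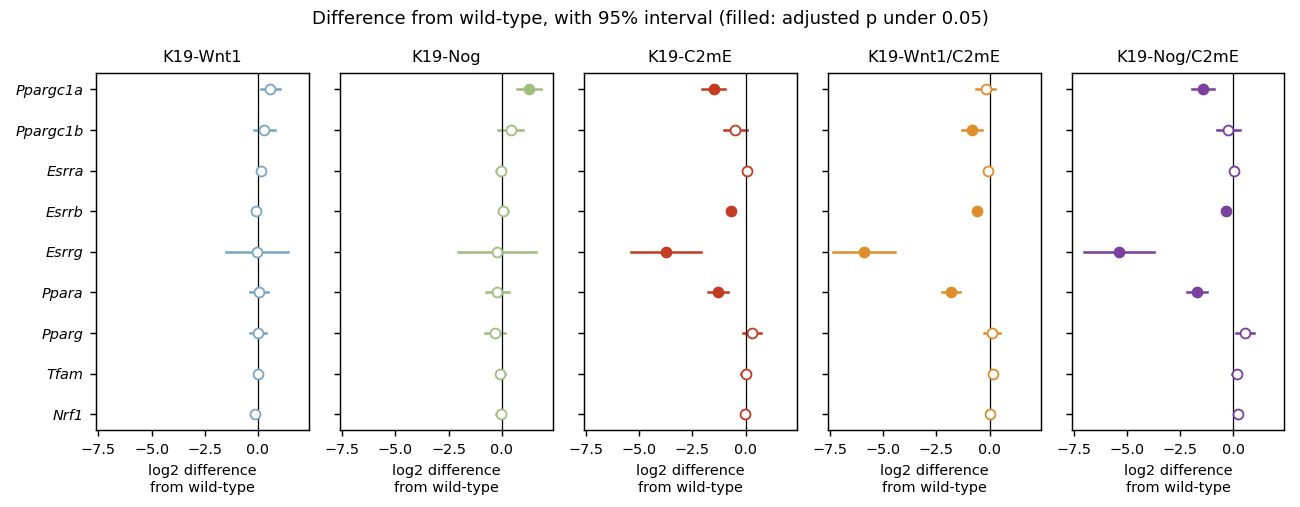
Log2 difference from wild-type (horizontal axis) of each of the 9 genes in the 5 transgenic genotypes; points are limma estimates, bars 95% intervals, and filled points have an adjusted p under 0.05. Ppargc1a is filled in K19-Nog, K19-C2mE and K19-Nog/C2mE and stands at -0.18 in K19-Wnt1/C2mE.

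Ppargc1a, the inducible coactivator PGC-1alpha, had the lowest p of the 9 members in the test among the 3 C2mE genotypes. Its log2 signal was 7.86, 7.61 and 7.66 in wild-type. It was 6.16, 6.06 and 6.39 in K19-C2mE and 5.86, 6.64 and 6.32 in K19-Nog/C2mE, against 7.27, 7.45, 7.05, 7.61 and 8.27 in K19-Wnt1/C2mE. K19-Wnt1/C2mE thus overlapped with wild-type, and no array of K19-C2mE or K19-Nog/C2mE reached its lowest array. Against wild-type Ppargc1a fell by 1.51 in K19-C2mE (SE 0.25, 2.85-fold, limma adjusted p = 0.000177) and by 1.44 in K19-Nog/C2mE (SE 0.25, 2.71-fold, limma adjusted p = 0.000213). In K19-Wnt1/C2mE the difference was -0.18 (SE 0.22, limma adjusted p = 0.554), with a 95% interval of -0.64 to 0.28. Leaving out the arrays of high Y-linked genes gave -1.45 (limma adjusted p = 0.109) for Ppargc1a in K19-C2mE and -1.34 (limma adjusted p = 0.0235) in K19-Nog/C2mE.

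Between the C2mE genotypes Ppargc1a was 2.51-fold higher in K19-Wnt1/C2mE than in K19-C2mE (log2 difference 1.33, SE 0.22, limma adjusted p = 0.00156). It was the only member called in that comparison, in which 7.06% of named genes were called. K19-Nog/C2mE was lower than K19-Wnt1/C2mE by 1.25 (SE 0.22, 2.39-fold, limma adjusted p = 0.000821), again the only member called, with 13.2% of named genes called. An F test among the 3 genotypes called Ppargc1a (limma adjusted p = 0.000354) and Esrrb (limma adjusted p = 0.0449), 2 of the 9 members, with 14.6% of named genes called. With the arrays of high Y-linked genes left out the difference between K19-Wnt1/C2mE and K19-C2mE was 1.19 (limma adjusted p = 0.18), and that between K19-Nog/C2mE and K19-Wnt1/C2mE was -1.07 (limma adjusted p = 0.0147). The squamous genes, with a summed signal of 1649 to 29813 in K19-Wnt1/C2mE and 781 to 1095 in K19-Nog/C2mE, also differed between the 3 genotypes. By its brightest probe set mean Ppargc1a was 6.28 in K19-Nog/C2mE and 6.20 in K19-C2mE, while its other probe sets had lower means in K19-Nog/C2mE. The part of squamous tissue in these levels was not tested.

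The 5 probe sets of Ppargc1a agreed on most of this. Over the 21 arrays they correlated with each other at 0.87 to 0.97, and all 5 were called lower in K19-C2mE and in K19-Nog/C2mE against wild-type and none in K19-Wnt1/C2mE. All 5 were called higher in K19-Wnt1/C2mE than in K19-C2mE, with log2 differences of 0.85 to 1.33. They parted between K19-Nog/C2mE and K19-C2mE. There the brightest differed by 0.08 (SE 0.25, limma adjusted p = 0.926), while 2 of the others were called lower in K19-Nog/C2mE, by 0.83 (limma adjusted p = 0.0491) and by 1.20 (limma adjusted p = 0.00637) on the log2 scale. Whether Ppargc1a is lower in K19-Nog/C2mE than in K19-C2mE thus depends on the probe set.

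**Figure D3:**
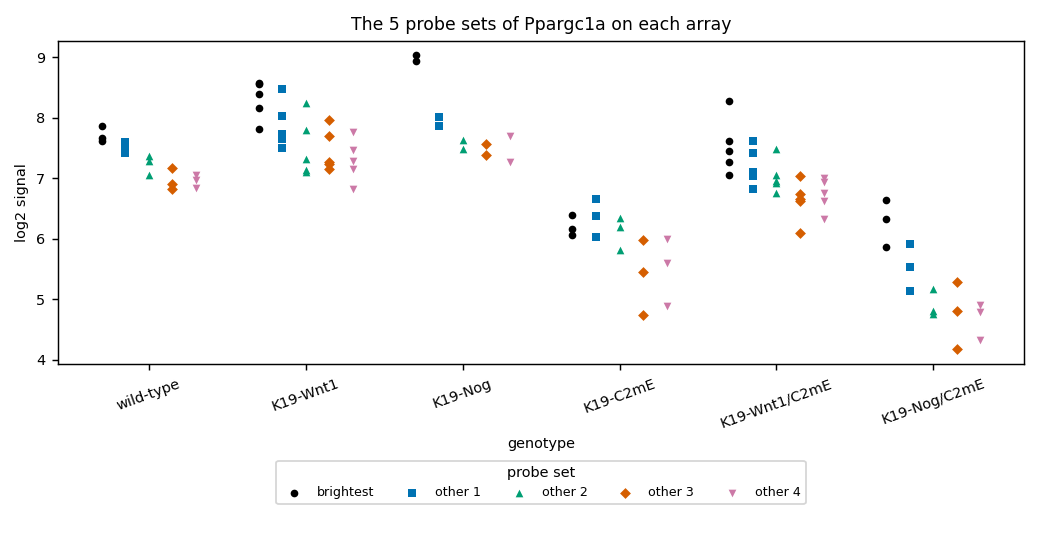
Log2 signal (vertical axis) of the 5 probe sets of Ppargc1a on each array, by genotype (horizontal axis); each symbol is 1 probe set and each point 1 array. All 5 are lower in K19-C2mE and K19-Nog/C2mE than in K19-Wnt1/C2mE on average, and levels of different probe sets are not comparable with each other.

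Ppargc1b, which encodes PGC-1beta, showed a different order. Its log2 signal was 10.16, 10.10 and 10.13 in wild-type and 9.89, 9.64 and 9.39 in K19-C2mE. With Wnt1 added to C2mE it was 8.79, 9.26, 9.02, 9.74 and 9.77, and with Nog added 10.06, 10.32 and 9.27. K19-Nog/C2mE overlapped with wild-type and the other 2 did not. Ppargc1b fell by 0.81 in K19-Wnt1/C2mE (SE 0.23, 1.76-fold, limma adjusted p = 0.00911). The differences of -0.49 in K19-C2mE (SE 0.26, limma adjusted p = 0.194) and -0.25 in K19-Nog/C2mE (SE 0.26, limma adjusted p = 0.515) did not pass the test. Ppargc1b was not called between any of the C2mE genotypes. Its single probe set leaves no check within the array, and the difference in K19-Wnt1/C2mE was -0.89 (limma adjusted p = 0.204) when the arrays of high Y-linked genes were left out.

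The other 4 members were not called against wild-type by their brightest probe sets. Tfam, the packaging and transcription factor of mitochondrial DNA, lay between 8.60 and 9.11 on all 21 arrays, with differences from wild-type of 0.01 with C2mE alone, 0.16 with Wnt1 added and 0.15 with Nog added. Their 95% intervals reached from -0.20 to 0.36, and neither of its 2 probe sets was called. Nrf1, a factor for respiratory chain and Tfam promoters, differed by -0.05, 0.02 and 0.23 by its brightest probe set (limma adjusted p = 0.745, 0.856 and 0.0676). Of its 3 other probe sets 1 was called higher in K19-C2mE (0.34, limma adjusted p = 0.0123) and K19-Wnt1/C2mE (0.35, limma adjusted p = 0.00264), and a different 1 in K19-Wnt1/C2mE (0.27, limma adjusted p = 0.00954). The 4 probe sets correlated with each other at only 0.11 to 0.62. Esrra, the estrogen-related receptor alpha, differed by 0.06, -0.09 and 0.03 by its brightest probe set (limma adjusted p = 0.713, 0.427 and 0.858). Its second probe set was called higher in all 3 genotypes, by 0.60, 0.55 and 0.57 (limma adjusted p = 0.00525, 0.0026 and 0.00542), and correlated at -0.08 with the first. The level of Esrra is thus uncertain on these arrays. Pparg, the lipid storage receptor, was 9.40, 9.58 and 9.59 in wild-type and 10.22, 9.81 and 10.15 in K19-Nog/C2mE, without overlap. The difference of 0.53 (SE 0.20, limma adjusted p = 0.0546) narrowly missed the threshold, and was called under 10 of 34 other settings. The differences of Pparg in K19-C2mE and K19-Wnt1/C2mE were 0.32 and 0.13.

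Without C2mE few differences passed the test. In K19-Wnt1 limma called 0 of the 9 members and 0.011% of named genes. At an unadjusted p under 0.05 it gave 1 member and 1137 of the 18193 named genes. That member was Ppargc1a, with a difference of 0.59 (SE 0.22, limma adjusted p = 0.622). The methods' t-test gave 4 members unadjusted and 0 after Benjamini-Hochberg, and its share over all named genes was not counted. In K19-Nog 1 member was called, with 3.87% of named genes called. This was Ppargc1a, which at 9.03 and 8.94 lay above all 3 wild-type arrays, a rise of 1.28 (SE 0.28, 2.42-fold, limma adjusted p = 0.00892). The call was lost without array 1 of K19-Nog (1.23, limma adjusted p = 0.097) and without array 2 (1.32, limma adjusted p = 0.0655), both of which leave a single array whose spread is taken from the other groups. It was also lost with the arrays of high Y-linked genes left out (1.37, limma adjusted p = 0.136). The 4 other probe sets differed by 0.33 to 0.52, and none was called. Smooth muscle genes moved with it. All 9 of 9 were called higher in K19-Nog, with a summed signal of 37759 to 49841 against 9948 to 14893 in wild-type, as were 4 of 8 enteric neuron and glia genes (872 to 950 against 378 to 400) and 2 of 6 adipocyte genes (2428 to 6393 against 2209 to 2414). The adipocyte signal was 2428 on array 1 of K19-Nog and 6393 on array 2, and 1 of 8 skeletal muscle genes was called higher. The part of muscle, nerve and fat in the rise of Ppargc1a was not tested.

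C2mE was also compared within each background. Between K19-Wnt1/C2mE and K19-Wnt1 6 of the 9 members were called and all were lower, where 43.6% of named genes were called and 21.2% lower. Esrrg fell by 5.88 (SE 0.61, 58.8-fold, limma adjusted p = 2.6e-07) and Ppara by 1.85 (SE 0.18, limma adjusted p = 9.46e-08). Ppargc1b fell by 1.12 (SE 0.20, 2.18-fold, limma adjusted p = 0.00016), and Esrrb by 0.51 (SE 0.07, limma adjusted p = 1.25e-05). In these 4 genes the genotypes did not overlap. Nrf1 did not overlap either, at 7.51 to 7.65 in K19-Wnt1/C2mE against 7.32 to 7.48 in K19-Wnt1. Its brightest probe set was not called, while 2 of its 4 probe sets were called higher. How many of all named genes showed no overlap was not counted. Ppargc1a fell by 0.77 (SE 0.19, limma adjusted p = 0.00346) and Esrra by 0.22 (SE 0.07, limma adjusted p = 0.0185), both with overlap, and the second probe set of Esrra was called in the opposite direction. With the arrays of high Y-linked genes left out 1 array of K19-Wnt1 remained, and the difference was -5.91 for Esrrg and -2.01 for Ppara. The calls of the other members did not hold there, and the share over all named genes was not counted.

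Between K19-Nog/C2mE and K19-Nog 5 members were called, 4 lower and 1 higher, where 26.2% of named genes were called and 13.2% lower. Ppargc1a fell by 2.71 (SE 0.28, 6.55-fold, limma adjusted p = 7.86e-07), from 9.03 and 8.94 to values of 6.64 or below. Esrrg fell by 5.19 (SE 0.88, 36.4-fold, limma adjusted p = 0.000223), Ppara by 1.52 (SE 0.25, limma adjusted p = 0.000206) and Esrrb by 0.43 (SE 0.10, limma adjusted p = 0.0049). Pparg rose by 0.86 (SE 0.23, 1.82-fold, limma adjusted p = 0.009), from 9.14 and 9.25 to 9.81 or above. Without array 1 of K19-Nog the calls of Esrrb (-0.28, limma adjusted p = 0.164) and Pparg (0.81, limma adjusted p = 0.0836) were lost. The smooth muscle signal, at 6771 to 9061 in K19-Nog/C2mE, differed here as well, and its part was not tested.

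Neither interaction called a member, so a different effect of C2mE with Wnt1 or with Nog was not shown for any of the 9. For Wnt1 0.973% of named genes were called. An unadjusted p under 0.05 was seen for 3 members and for 2379 of the 18193 named genes. For Nog 1.12% of named genes were called. There 2 members and 1679 of the 18193 named genes had an unadjusted p under 0.05. For Ppargc1a the interaction with Wnt1 was 0.74 (SE 0.31, limma adjusted p = 0.353) and that with Nog -1.20 (SE 0.37, limma adjusted p = 0.22). Between K19-Nog/C2mE and K19-C2mE 1 member was called, where 3.35% of named genes were called. This was Esrrb, higher by 0.33 (SE 0.09, limma adjusted p = 0.0451), with overlap and with neither of its other probe sets called. The call held under 9 of 34 other settings.

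The levels of Esrrg and of parietal cell genes followed each other closely over the arrays. Of all named genes Kcne2, a potassium channel subunit of the parietal cell, had the level most like that of Esrrg (Pearson r = 0.994 over 21 arrays, and 0.940 with genotype means removed). With genotype means removed the nearest was Pgc, the pepsinogen of chief cells (0.944), so the likeness within genotypes was not to parietal genes alone. Over the 21 arrays Kcne2 was followed by the respiratory chain subunit Cox7a1 (0.992), the fatty acid carrier Fabp3 (0.991), the troponin Tnni3 (0.989) and the anion exchanger Slc26a7 (0.988). Kcne2 itself differed from wild-type by -4.07 with C2mE alone, -6.62 with Wnt1 added and -5.93 with Nog added. The summed signal of the 9 parietal genes was 68282 to 73779 in wild-type, 65963 to 74036 in K19-Wnt1 and 67560 to 69555 in K19-Nog. It was 5626 to 27702 in K19-C2mE, 4193 to 15234 in K19-Wnt1/C2mE and 2177 to 9929 in K19-Nog/C2mE. Within genotypes the order held in part. Array 2 of K19-C2mE and array 3 of K19-Nog/C2mE had the lowest Esrrg and the lowest parietal signal of their genotypes, and array 3 of K19-Wnt1/C2mE the highest of both. Among the other K19-Wnt1/C2mE arrays the order was broken, since array 2 had the lowest Esrrg (4.64) with a parietal signal of 5161, and array 5 the lowest parietal signal (4193) with Esrrg at 4.85. The 2 K19-Nog arrays ran in opposite order. These correlations share arrays and dissection, and are descriptions without a test.

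**Figure D4:**
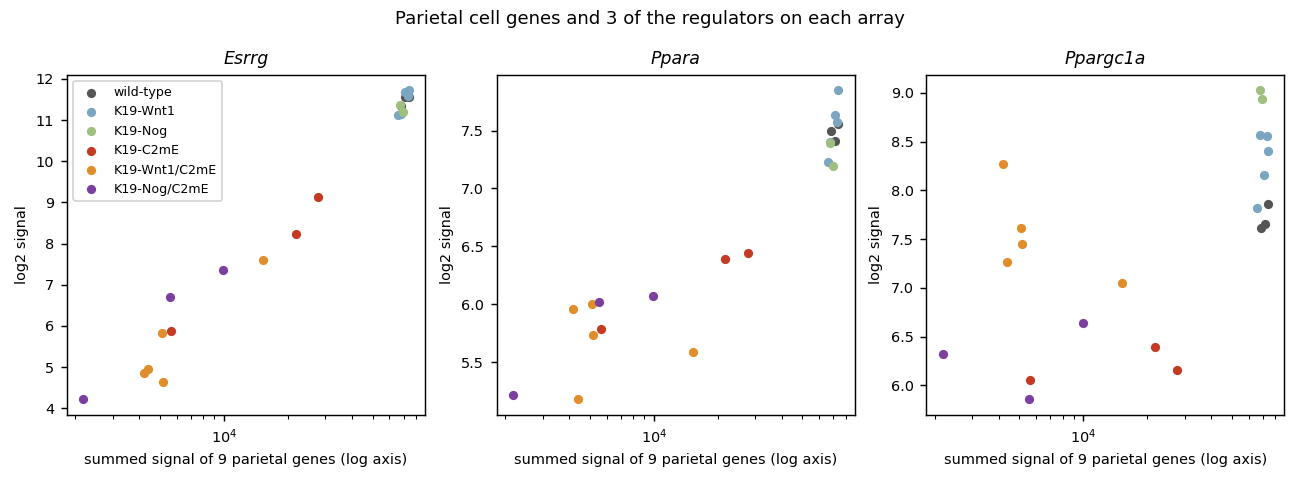
Log2 signal (vertical axis) of Esrrg, Ppara and Ppargc1a against the summed signal of 9 parietal cell genes (horizontal axis, logarithmic) on each of the 21 arrays, coloured by genotype. Esrrg is high on every array with a parietal signal of 65963 or more and lower on the others. The K19-Wnt1/C2mE arrays have parietal signals of 4193 to 15234 and Ppargc1a at 7.05 or above. The part of parietal cells in these levels was not tested.

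The other members followed other genes. Ppara was most like Ivd (r = 0.977), an enzyme of leucine breakdown in the mitochondrion, and correlated at 0.96 with Esrrg, or at 0.60 with genotype means removed. Esrrb was most like Ndufb11 (r = 0.948), a subunit of complex I, and the list of its 5 nearest also held Prkaa2 (0.947), a catalytic subunit of the energy sensor AMPK, and Ndufb8 (0.943). Ppargc1b was most like Iqsec1 (r = 0.942), with the respiratory subunit Cox6a1 the third (0.930). Ppargc1a correlated at 0.58 with Esrrg, and at -0.13 with genotype means removed. In the K19-Wnt1/C2mE arrays it was at 7.05 or above beside parietal signals within the range of the other C2mE genotypes. The part of parietal cells in the level of Ppargc1a was not tested.

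The genes around the regulators were counted in 7 lists. The shares of all named genes called lower were 12.6%, 21.7% and 16.2% in K19-C2mE, in K19-Wnt1/C2mE and in K19-Nog/C2mE, and those called higher 14.3%, 20.5% and 15.6%. Where 3 values follow each other below, they are log2 differences from wild-type with C2mE alone, with Wnt1 added and with Nog added. The clearest shift was in the genes of respiration listed as targets of estrogen-related receptors and PGC-1. Of 35 such genes 29 fell in K19-C2mE, 32 in K19-Wnt1/C2mE and 27 in K19-Nog/C2mE, and 0 rose. Their median differences were -0.64, -0.77 and -0.62, against medians of -0.02, -0.04 and -0.02 over all named genes. The muscle-type cytochrome oxidase subunit Cox7a1 differed most (-3.66, -5.71 and -5.37, all called). Slc25a4, the adenine nucleotide carrier of the inner membrane, fell as well (-1.87, -2.12 and -2.20, limma adjusted p = 1.09e-07, 1.51e-09 and 8.41e-09). Ndufa4, a subunit of cytochrome oxidase, fell (-1.19, -1.56 and -1.86), and so did Etfdh, which passes electrons from fatty acid oxidation to ubiquinone (-0.95, -1.07 and -1.15). In K19-Wnt1/C2mE, where these genes fell too, Esrrg and Ppargc1b were called lower and Ppargc1a did not pass the test. The part of any regulator or cell type in the fall of these genes was not tested. In K19-Wnt1 limma called 0 of these 35 genes, where 0.011% of all named genes were called.

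Among 24 listed targets of PPAR-alpha in fatty acid oxidation 7, 18 and 13 fell and 2 rose in each genotype, with medians of -0.27, -0.47 and -0.52. Pdk4, a kinase that turns off pyruvate oxidation, fell in K19-Wnt1/C2mE (-3.27) and likewise in K19-Nog/C2mE (-2.93), and its difference of -2.0 in K19-C2mE did not pass the test (limma adjusted p = 0.0513). The fatty acid binding protein Fabp1 fell in K19-Wnt1/C2mE (-2.53), and its differences of -1.02 and -1.34 in the other 2 did not pass the test. Vnn1, a pantetheinase, rose by 4.75, 3.80 and 5.84 (limma adjusted p = 1.22e-05, 2e-05 and 7.4e-07), and Acaa1b, a peroxisomal thiolase, by 1.94, 2.53 and 2.19.

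Of 13 listed targets of PPAR-gamma in lipid storage 5, 6 and 6 were called lower and 3 higher in each genotype, with medians of -0.37, -0.45 and -0.27. Lipoprotein lipase, Lpl, fell (-3.63, -5.25 and -3.95), as did the fatty acid transporter Cd36 (-3.59, -4.48 and -4.77) and the glucose transporter Slc2a4 (-2.29, -2.73 and -2.98). Cidea, a protein of lipid droplets, rose (2.49, 3.64 and 2.5). The list thus split in both directions while Pparg itself was not called against wild-type, narrowly so in K19-Nog/C2mE.

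**Figure D5:**
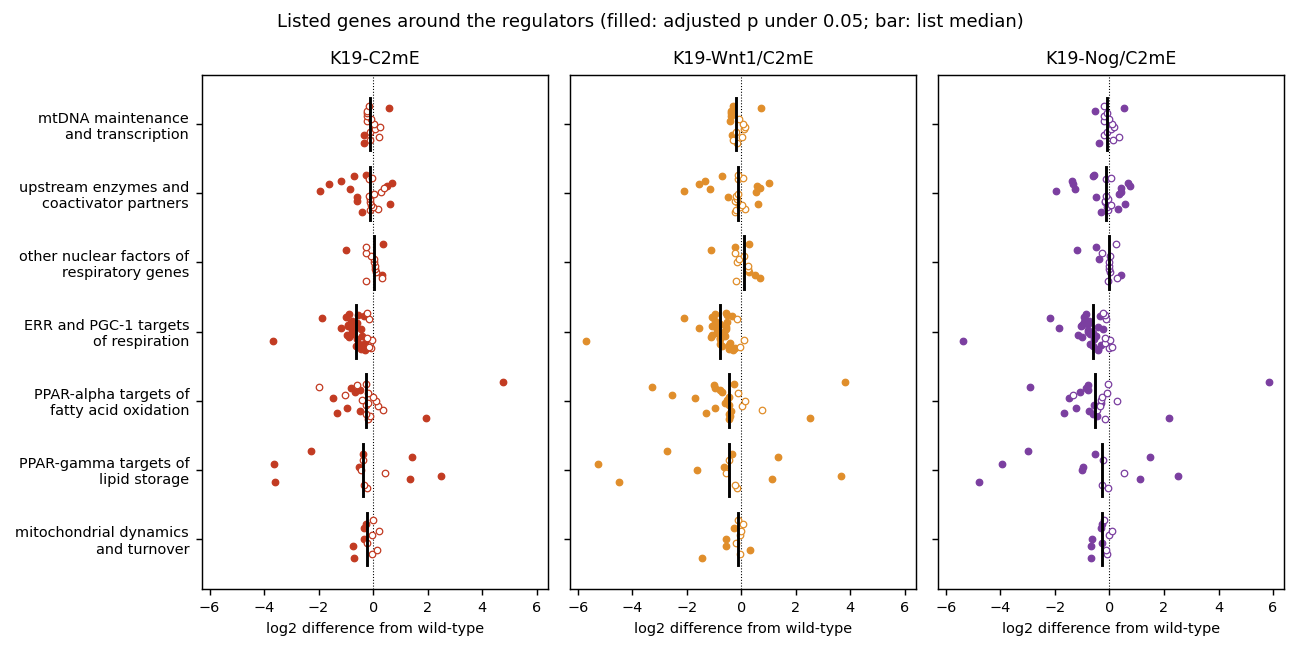
Log2 difference from wild-type (horizontal axis) of every measured gene of 7 lists (vertical axis) in the 3 C2mE genotypes; each point is 1 gene, filled where the adjusted p is under 0.05, and black bars are list medians. The respiration targets lie to the left with medians of -0.64, -0.77 and -0.62, and the mtDNA genes have medians of -0.12, -0.19 and -0.08.

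Of 24 enzymes and partners that act on PGC-1, 3, 5 and 7 were called higher and 9, 6 and 8 lower, with medians of -0.12, -0.14 and -0.12. In K19-Wnt1/C2mE both counts are close to the shares of all named genes, 20.5% higher and 21.7% lower, and so is the count of higher genes in K19-C2mE (14.3%). Perm1, a muscle factor induced by PGC-1 and estrogen-related receptors, fell (-1.94, -2.10 and -1.96, limma adjusted p = 5.89e-07, 1.63e-08 and 3.2e-07). The AMPK subunits Prkaa2 (-1.63, -1.57 and -1.35) and Prkab2 (-1.18, -1.35 and -1.36) fell in each, as did the calcineurin subunit Ppp3ca (-0.86, -1.15 and -1.27). Among 13 other nuclear factors of respiratory genes 2, 4 and 1 rose and 1, 2 and 3 fell, with medians of 0.03, 0.11 and -0.03. There the thyroid hormone receptor Thra fell (-0.99, -1.13 and -1.18), and Gabpb2, a subunit of the ETS factor GABP, rose (0.31, 0.49 and 0.44).

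In each genotype 1 of the 15 genes that maintain and transcribe mitochondrial DNA, the machinery that TFAM serves, was called higher, and 2, 6 and 2 were called lower, with medians of -0.12, -0.19 and -0.08, and the differences of single genes ran from -0.53 to 0.71. The gene that rose was Top1mt, the mitochondrial topoisomerase (0.58, 0.71 and 0.53). Tfb2m, a transcription factor of mitochondrial DNA, fell with Wnt1 added (-0.39) and with Nog added (-0.53), and its difference of -0.23 with C2mE alone did not pass the test. Among 11 genes of mitochondrial fusion, fission and turnover 5, 4 and 6 fell and 0, 1 and 0 rose, with medians of -0.22, -0.12 and -0.27. The mitophagy receptor Fundc1 fell (-0.74, -0.56 and -0.69), as did the fusion factor Mfn1 (-0.33, -0.58 and -0.66). In K19-Wnt1 limma called 0 genes of all 7 lists, where 0.011% of all named genes were called, so this count is no trait of the lists.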

How the data were processed

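Affymetrix mouse whole-genome arrays were normalised by the authors with RMA (Affymetrix Power Tools, run from Rosetta Resolver), and 1 linear intensity per probe set and array was deposited for 21 mice. The authors also deposited log10 ratios to the wild-type mean, limited to 2, and these served as an alternative. The log2 of the intensities was used without further normalisation. The number of mice, not depth, limits precision, and p-values measure the spread between mice.

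The array annotation gives a single gene for 34945 of the 45037 probe sets, more than that for 932 and no gene for 9160. Members and lists were chosen with earlier results of these data known. Named genes are all 9 members with every probe set, up to 4 listed genes each with the largest change in the C2mE genotypes, and the nearest patterns. Of the listed genes some could not be named and were left out, among them Ddx3y, so that the Y-linked level is the mean of 3 genes. The cAMP response motifs were added after values were seen.

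All 21 arrays entered 1 linear model per probe set, with the 6 genotypes as levels and moderated variances (limma 3.58.1 in R 4.3.3), which was tested on simulated data. Summaries and figures used Python 3.11.15, pandas 2.3.3, numpy 2.4.6 and matplotlib 3.10.9. Replicate numbers of the labels were not used to pair mice in the main model. Of 38 same-numbered pairs 9 correlated above 0.1, but differently numbered pairs were not compared, so this does not decide whether mice were paired. Alternatives were a 2-fold rule, adjustment over named genes, only the genotypes compared, the methods' t-test, an ANOVA at p under 0.001, a replicate block, dim probe sets (below the 50th percentile) left out, centred medians, the ratio table, robust variances with a trend, the mean of probe sets, Y-linked settings, and each array left out.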

Additional observations from a re-analysis of the deposited data

Results flagged for a closer look

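Nrf1 on array 1 of K19-Wnt1/C2mE stood apart from the other 4 arrays of its genotype by Dixon's test, with a log2 signal of 7.65 against 7.54 in the nearest (0.801 of the range). Of 18 groups tested by this rule it was the 1 that stood apart, and chance gives about 1 in 20.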

How the results depend on the processing

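Esrrg and Ppara were called lower against wild-type in K19-Wnt1/C2mE and K19-Nog/C2mE under all 34 alternatives, and Ppargc1a in K19-Nog/C2mE likewise. Of the single-gene results 3554 kept their side of the threshold, 70 lost a call, 46 gained one and 2 turned direction with a call. A change of direction without a call under either setting was counted among the 3554. Both that turned were Esrra with the mean of its probe sets, 0.23 (limma adjusted p = 0.0399) in K19-Wnt1/C2mE against wild-type and 0.08 (limma adjusted p = 0.427) against K19-Wnt1, since its probe sets differ.

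Counts of called members that moved over 1.5 times were these. With a 2-fold rule the count was 2 in K19-Wnt1/C2mE and 0 in K19-Nog/C2mE against K19-C2mE, and 3 each in K19-Wnt1/C2mE against K19-Wnt1 and K19-Nog/C2mE against K19-Nog. Leaving out arrays with high Y-linked genes lowered the counts in K19-C2mE, in K19-Nog and in both comparisons with K19-C2mE. It also lowered those of K19-Wnt1/C2mE against K19-Wnt1 and of the F test. That setting leaves 1 array each of wild-type, K19-Wnt1 and K19-C2mE, so its counts are no result about the members. The methods' t-test unadjusted gave 4 in K19-Wnt1, 2 in K19-Nog, 2 in K19-Nog/C2mE against K19-Wnt1/C2mE, 0 in K19-Nog/C2mE against K19-C2mE, and 3 and 2 for the interactions with Wnt1 and Nog. After Benjamini-Hochberg it gave 0 in K19-Nog, in all comparisons among C2mE genotypes and in K19-Nog/C2mE against K19-Nog. The mean of probe sets gave 0 in K19-Nog. The call of Esrrb between K19-Nog/C2mE and K19-C2mE (1 in the main model) became 0 with adjustment over named genes, only the genotypes compared, the replicate block, centred medians, a variance trend, the mean of probe sets and the Y-linked covariate. The F test then called 1 in each of these except adjustment over named genes and the block, and 0 by ANOVA at p under 0.001. With the replicate block K19-Nog/C2mE against K19-Wnt1/C2mE gave 2. The cause of these moves was not tested.

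With each array left out in turn the counts were 4 to 4 in K19-C2mE and K19-Wnt1/C2mE, 4 to 6 in K19-Nog/C2mE, 0 to 0 in K19-Wnt1 and for both interactions, 0 to 1 in K19-Nog, 1 to 2 in K19-Wnt1/C2mE and 0 to 2 in K19-Nog/C2mE against K19-C2mE, 1 to 3 in K19-Nog/C2mE against K19-Wnt1/C2mE, 5 to 7 in K19-Wnt1/C2mE against K19-Wnt1, 3 to 7 in K19-Nog/C2mE against K19-Nog and 1 to 4 in the F test.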
